A study of Mus musculus with 19 samples.

Results

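H19, Igf2, Dlk1, Meg3, Rian, Mirg, Peg3, Ndn, Mest and Plagl1 are imprinted genes of the mouse. They were taken as the rows of the RNA-seq count tables whose Ensembl identifiers carry these symbols in the GRCm38 annotation, and all 10 were found among the 47069 genes of the tables. The rule names the genes and sets no threshold on their levels, but the list was drawn up with earlier results of these data known. At E16.5, 5 of the 10 were higher in ipsilaterally projecting retinal ganglion cells (iRGCs) than in contralaterally projecting ones (cRGCs), 4 were lower, and Dlk1 did not pass the test, where 23.3% of all 15941 tested genes were higher and 23.1% lower.

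An imprinted gene is transcribed mainly from the copy inherited from one parent, because DNA methylation laid down at a control region in the egg or the sperm distinguishes the copies. Such genes lie in clusters under shared control regions, and pairs of a paternally expressed growth gene and a maternally expressed long noncoding RNA recur among them. Many act on fetal growth, and several are known for high levels in progenitors or in neurons of the embryonic nervous system. The counts analysed here add both parental copies together, so they give levels and not the allele that was read.

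GFP-positive cells were sorted from retinas of E16.5 embryos of both sexes, of C57/DBA F1 background and labelled WT, and poly(A) RNA was sequenced from 3 libraries per population. Both populations carried a Cre-dependent Sun1-GFP reporter in the Rosa26 locus, which tags the nuclear envelope of cells that have expressed Cre and of their descendants. For iRGCs the reporter was crossed to the Slc6a4-Cre transgene, and for cRGCs to Cre knocked into the Pou4f2 (Brn3b) locus, with the ventrotemporal (VT) retina cut away before sorting. The label therefore records past activity of the driver, and the populations differ in the driver, in the part of the retina kept and in the code that begins the names of their libraries, which cannot be told apart. The number of reads assigned to genes ran from 28193178 to 33638083 over the 6 libraries. Levels are CPM, the counts per 1000000 counted reads after TMM scaling of the library total, and fold changes are log2 values of iRGCs over cRGCs with their standard error (SE).

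The drivers and 1 guidance factor were read first. Zic2, the transcription factor that sets the ipsilateral route, stood at 133, 173 and 157 CPM in the 3 iRGC libraries and at 57.0, 60.2 and 65.7 CPM in the 3 cRGC libraries. Pou4f2, a factor of most RGCs, stood at 74.7, 133 and 98.3 CPM in iRGCs and at 191, 196 and 293 CPM in cRGCs. Slc6a4, the serotonin transporter whose regulatory DNA drives Cre in the iRGC line, stood at 2.06, 33.4 and 116 CPM in iRGCs and at 48.1, 35.4 and 30.5 CPM in cRGCs. The library labelled iRGC replicate 1 was thus below every cRGC library in Slc6a4, and the populations overlapped. Without that library, 5 of the 10 imprinted genes were again higher in iRGCs and 4 lower, in an edgeR fit on the other 5 libraries in which 3521 of all genes were higher and 3575 lower.

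Marker genes of several cell types differed between the populations, and these values stand beside every result that follows. In iRGCs, 12 of 12 retinal progenitor markers were higher, with summed levels of 9062, 7907 and 6778 CPM against 752, 2040 and 1266 CPM in cRGCs and the cyclin gene Ccnd1 the most abundant. Of the RGC markers 11 of 12 were lower, with sums of 2070, 2974 and 4362 CPM against 11664, 10675 and 12671 CPM and the growth cone gene Gap43 the most abundant. No library of one population reached the other in either sum. In RNA from pooled cells, fewer cells of a type and less RNA per cell cannot be told apart, and the part of the progenitor and RGC markers in the differences of imprinted genes was not tested.

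Markers of vessels and blood also moved with the populations. Summed endothelial markers stood at 471, 731 and 437 CPM in iRGCs and at 89.2, 109 and 72.0 CPM in cRGCs, and all 7 of the 12 that could be tested were higher in iRGCs. Kdr, a VEGF receptor gene, was the most abundant, at 366, 320.5 and 418 CPM in iRGCs and at 83.7, 103 and 67.6 CPM in cRGCs. It made up nearly all of the cRGC sums and most of the sums of iRGC replicates 1 and 3. In iRGC replicate 3 Pecam1, Cdh5, Tie1, Tek, Esam and Emcn were each at 0.284 CPM or below, while Cldn5, Egfl7 and Flt1 stood at 11.8, 2.68 and 2.59 CPM, above every cRGC library. Cdh5, which encodes the cadherin of endothelial junctions, stood at 15.2, 81.3 and 0.158 CPM in iRGCs and was at 0 in every cRGC library, as were Tie1 and Erg. Mural markers summed to 138, 283 and 124 CPM in iRGCs and to 22.5, 33.8 and 24.1 CPM in cRGCs, with 5 of 7 tested genes higher, Notch3 the most abundant (113, 117 and 83.5 CPM in iRGCs, 17.1, 26.7 and 18.6 CPM in cRGCs), and Kcnj8 and Acta2 at 0 in cRGCs. Erythroid markers summed to 12.2, 92.7 and 15.3 CPM in iRGCs and to 0, 5.18 and 0.290 CPM in cRGCs. Hbb-bs was the most abundant, and Alas2 was at 0 in cRGCs. All 4 tested erythroid genes were higher, but they had enough reads for the test in iRGCs and not in cRGCs. The same held for the endothelial genes Cd34 and Flt1 and the mural genes Rgs5 and Tagln. The filter on low counts thus favoured calls in this direction, and these tallies add little to the sums. The endothelial and mural sums were themselves mostly Kdr and Notch3, except in iRGC replicate 2. Which cell types these Kdr and Notch3 reads came from was not tested. iRGC replicate 2 held the highest endothelial, mural and erythroid sums of the 6 libraries.

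**Figure D1:**
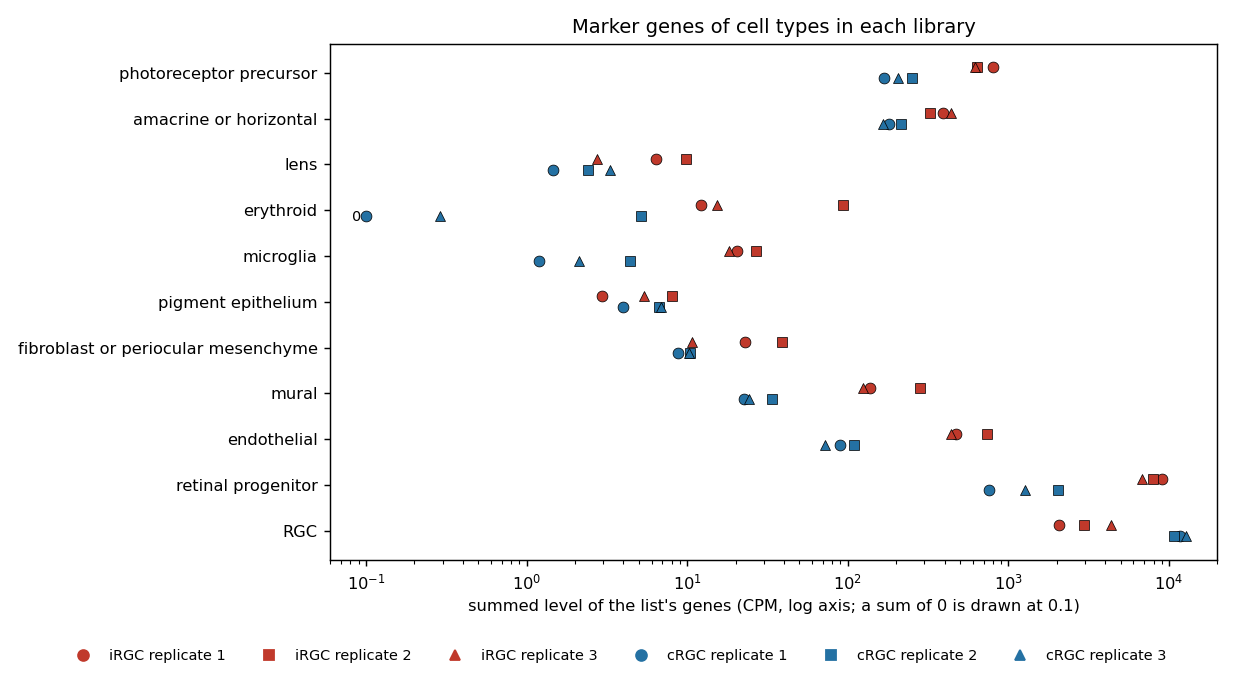
Summed level in CPM (log axis) of the genes of 11 marker lists in each of the 6 libraries, with a sum of 0 drawn at 0.1. Progenitor sums of iRGCs lie between 6778 and 9062 CPM and those of cRGCs between 752 and 2040 CPM, while RGC sums lie the other way round, and iRGC replicate 2 has the highest erythroid sum, 92.7 CPM.

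The remaining lists were read in the same way. Fibroblast or periocular mesenchyme markers summed to 23.0, 39.0 and 10.7 CPM in iRGCs and to 8.73, 10.4 and 10.2 CPM in cRGCs, with 2 of 4 tested genes higher, Col1a2 the most abundant, and Col3a1, Dcn, Lum, Twist1, Prrx1, Foxc1 and Foxc2 at 0 in cRGCs. Lum was at 0 in every iRGC library as well. Dcn and Twist1 were read only in iRGC replicate 3, and Col3a1 and Foxc2 only in iRGC replicate 2. Prrx1, called higher, had enough reads for the test only in iRGCs. Microglia markers reached 18.2 to 27.0 CPM in iRGCs and 1.19 to 4.42 CPM in cRGCs, with Csf1r the most abundant. Of 7 tested genes 4 were higher, Csf1r, C1qa, C1qb and C1qc. These too had enough reads for the test in iRGCs and not in cRGCs, so the filter favoured their calls. Pigment epithelium markers, with Best1 the most abundant and Rpe65 at 0 in cRGCs, and lens markers, with Bfsp1 the most abundant and Cryaa, Crygs and Mip at 0 in cRGCs, had 0 of 5 and 0 of 2 tested genes past the threshold, and their sums overlapped between the populations. Mip was at 0 in every iRGC library as well. Cryaa and Crygs were read only in iRGC replicate 2, and Rpe65 only in iRGC replicate 3. Amacrine or horizontal cell markers summed to 389, 325 and 439 CPM in iRGCs and to 179, 213 and 166 CPM in cRGCs, with 5 of 8 tested genes higher and Tfap2b the most abundant. Photoreceptor precursor markers summed to 799.9, 637 and 619.9 CPM in iRGCs and to 168, 252 and 204 CPM in cRGCs, with 4 of 5 higher, 1 lower, Otx2 the most abundant and Rcvrn at 0 in iRGCs. Neither sum overlapped between the populations.

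Across all 15941 tested genes, 23.3% were higher in iRGCs and 23.1% lower at an adjusted p-value under 0.1 (edgeR quasi-likelihood test, Benjamini-Hochberg over all tested genes). Without regard to that test, 27.1% of tested genes had every iRGC library above every cRGC library and 28.2% had every one below. Against these shares, H19, Igf2, Peg3, Mest and Plagl1 were higher and Meg3, Rian, Mirg and Ndn lower, and in all 10 genes the 3 iRGC libraries lay entirely above or below the 3 cRGC libraries. Dlk1, with few reads and 0 in cRGC replicate 1, counts in this tally and in the median that follows. It passed the filter on low counts through the iRGC libraries, so the filter favoured its direction. The median absolute log2 fold change was 1.82 over the 10 genes and 0.60 over all tested genes. No gene list was tested as a set, and the median log2 fold change of all genes was -0.00.

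**Figure D2:**
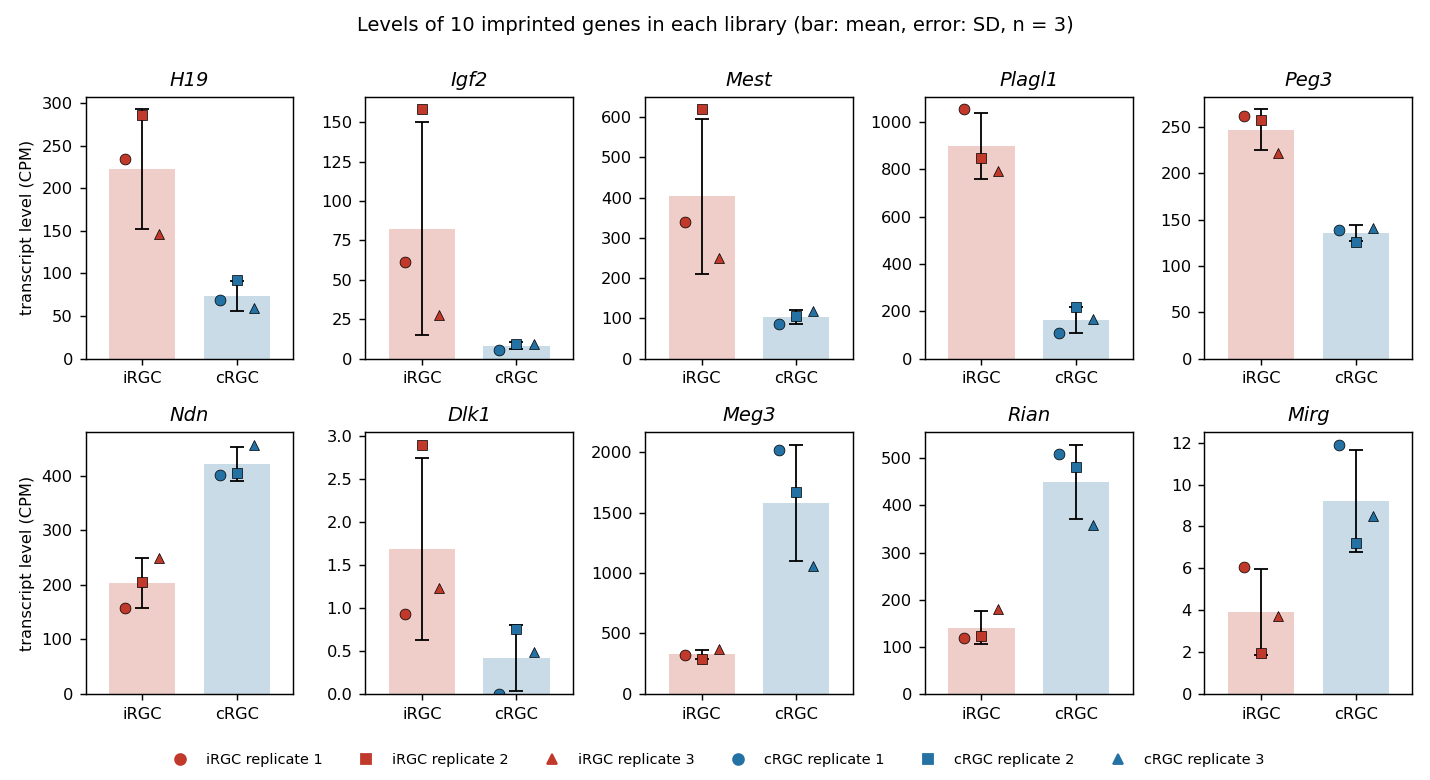
Level of each of the 10 imprinted genes in CPM (linear axis from 0, a scale of its own per gene) in 3 iRGC and 3 cRGC libraries, with bars at the mean and error bars of 1 SD (n = 3). In each gene the libraries of the populations do not overlap, and the highest Igf2, Mest and H19 values, 158, 619.7 and 286 CPM, are all from iRGC replicate 2.

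Igf2 and H19 are neighbours at the distal end of chromosome 7. Igf2 (ENSMUSG00000048583, chr7:142650766-142666816, minus strand, GRCm38) encodes a secreted insulin-like growth factor read from the paternal copy. H19 (ENSMUSG00000000031, chr7:142575529-142578143, minus strand) is a long noncoding RNA read from the maternal copy, and both are known to share enhancers behind a control region that CTCF binds. Each gene also holds a microRNA, and the strand of each with the seed (bases 2 to 8) in capitals shows what these host transcripts carry, from RefSeq on GRCm38.p6. miR-675-5p, at chr7:142577112-142577133 on the minus strand, lies in a hairpin gene that takes up 3.41% of the exonic bases of H19. miR-483-3p, at chr7:142654932-142654952 on the minus strand, lies in an intron of Igf2.
miR-675-5p: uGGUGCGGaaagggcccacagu
miR-483-3p: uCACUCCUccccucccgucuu
Mature microRNAs are too short and lack the poly(A) tail that these libraries required, so their levels were not measured, and the values below are those of the host transcripts.

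Igf2 stood at 61.2, 158 and 27.9 CPM in the iRGC libraries and at 5.38, 9.49 and 9.20 CPM in the cRGC libraries. All 3 iRGC libraries were above the cRGC libraries, but they differed among themselves more than those of any other abundant gene of the 10, with iRGC replicate 2 far above the others. iRGCs exceeded cRGCs by 3.36 on the log2 scale (SE 0.58, adjusted p = 0.00181), the largest difference of the 10 genes. Without iRGC replicate 2 it was 2.47 (adjusted p = 0.00295), below the 2.49 of Plagl1 in the same fit.

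H19 stood at 234, 286 and 147 CPM in iRGCs and at 69.2, 92.6 and 58.9 CPM in cRGCs. The lowest iRGC library was above the highest cRGC library, and iRGC replicate 3 was the lowest of the iRGC libraries for H19 as it was for Igf2. On the log2 scale H19 was higher by 1.60 (SE 0.25, adjusted p = 0.00120). H19 and Igf2 are read from opposite parental copies, and both were higher in iRGCs.

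The genes that receive and pass on the signal of Igf2 were read beside it. Igf2r, a receptor that takes Igf2 up for degradation and is imprinted in most tissues but read from both copies in neurons, stood at 139, 170.4 and 123 CPM in iRGCs and at 76.8, 72.0 and 69.2 CPM in cRGCs, higher by 0.99 in log2 (SE 0.14, adjusted p = 6.64e-04). Grb10, an imprinted adaptor that binds the insulin and Igf1 receptors and is read from the paternal copy in neurons, stood at 1179.9, 1171 and 834 CPM in iRGCs and at 193, 314 and 377 CPM in cRGCs, higher by 1.85 in log2 (SE 0.24, adjusted p = 5.14e-04). Both were thus higher in iRGCs with no overlap of libraries. The receptors that signal are not imprinted, and were chosen after their values were seen. Igf1r did not pass the test, with a difference of -0.02 in log2 (SE 0.14, adjusted p = 0.943), and Insr was lower in iRGCs (log2 value -0.34, SE 0.10, adjusted p = 0.0238).

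Plagl1 (ENSMUSG00000019817, chr10:13060504-13131694, plus strand), also named Zac1, encodes a zinc finger transcription factor that can halt the cell cycle, and is read from the paternal copy. It stood at 1056, 849.7 and 793 CPM in iRGCs and at 108, 219 and 165 CPM in cRGCs. No other gene of the 10 had so high a mean in iRGCs, and the lowest iRGC library was well above the highest cRGC library. Plagl1 was higher by 2.46 in log2 (SE 0.24, adjusted p = 2.22e-04), and this difference lay between 2.22 and 2.74 with any 1 library left out.

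Mest (ENSMUSG00000051855, chr6:30723547-30748465, plus strand) encodes a membrane protein with a hydrolase fold that is abundant in mesoderm and read from the paternal copy. It stood at 339, 619.7 and 250.2 CPM in iRGCs and at 85.3, 105 and 119 CPM in cRGCs. The libraries did not overlap, and iRGC replicate 2 was again the highest. In log2 the difference was 1.97 (SE 0.30, adjusted p = 0.00107), and 1.51 without iRGC replicate 2. An intron of Mest holds miR-335-5p at chr6:30741314-30741336 on the plus strand, whose seed is in capitals.
miR-335-5p: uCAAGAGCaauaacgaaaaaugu
At its 3′ end Mest runs into Copg2 on the other strand, and 23.1% of its exonic bases are shared with it. Whether reads were counted by strand is not given in the sources used here. Copg2, a coatomer subunit, stood at 89.2, 106 and 106 CPM in iRGCs and at 114, 102 and 113 CPM in cRGCs and did not pass the test (log2 fold change -0.13, SE 0.11, adjusted p = 0.420).

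Peg3 (ENSMUSG00000002265, chr7:6703892-6730431, minus strand) encodes a large zinc finger protein and is read from the paternal copy. It stood at 262, 257 and 222 CPM in iRGCs and at 139, 126 and 141 CPM in cRGCs. The libraries of each population were close to each other, so this smallest fold change among the 9 genes that passed still had a small error. Peg3 was higher by 0.87 in log2 (SE 0.11, adjusted p = 4.46e-04).

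Ndn (ENSMUSG00000033585, chr7:62346569-62350262, plus strand) encodes necdin, a MAGE family protein abundant in neurons that have left the cell cycle, and lies with Snrpn in the Prader-Willi cluster. It stood at 157, 206 and 249 CPM in iRGCs and at 402, 405.5 and 457 CPM in cRGCs. Every cRGC library was above every iRGC library. This gave a log2 value of -1.05 (SE 0.16, adjusted p = 0.00112). Ndn was the only gene lower in iRGCs among the 6 paternally expressed genes of the 10, of which 4 were higher and Dlk1 did not pass. Of the 4 maternally expressed genes 1 was higher and 3, all from the chromosome 12 cluster, were lower, where 23.3% of all tested genes were higher and 23.1% lower.

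The cluster on chromosome 12 gave Dlk1, Meg3, Rian and Mirg, in this order along the plus strand. Dlk1 (ENSMUSG00000040856, chr12:109452823-109463336), read from the paternal copy, encodes a transmembrane protein with EGF-like repeats that acts as a non-canonical Notch ligand. Meg3 (ENSMUSG00000021268, chr12:109541001-109571726), Rian (ENSMUSG00000097451, chr12:109603940-109661716) and Mirg (ENSMUSG00000097391, chr12:109729764-109749460) are noncoding RNAs read from the maternal copy. Rian hosts box C/D small nucleolar RNAs, and Mirg hosts a large set of microRNAs.

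Of the 41 mature microRNAs that RefSeq places within the 10 genes on GRCm38.p6, 26 lie in Mirg, 6 in Rian, 3 in Meg3 and 2 each in H19, Igf2 and Mest, and the other 4 genes hold none. They carry 40 different seeds, and miR-453 and miR-496a-5p share one. The sequences that follow show 1 microRNA each of Meg3 and Rian, 3 of Mirg with unlike seeds and the pair that shares its seed, again in capitals. They lie on the plus strand of chromosome 12 at chr12:109563710-109563731 (miR-770-5p, in Meg3), chr12:109618305-109618326 (miR-370-3p, in Rian), chr12:109734145-109734166 (miR-134-5p), chr12:109734946-109734967 (miR-485-3p), chr12:109743764-109743784 (miR-410-3p), chr12:109735669-109735692 (miR-453) and chr12:109739132-109739152 (miR-496a-5p), the last 5 in Mirg.
miR-770-5p: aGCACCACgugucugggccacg
miR-370-3p: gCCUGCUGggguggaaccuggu
miR-134-5p: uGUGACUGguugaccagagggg
miR-485-3p: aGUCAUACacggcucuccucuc
miR-410-3p: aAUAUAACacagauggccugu
miR-453: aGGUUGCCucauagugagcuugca
miR-496a-5p: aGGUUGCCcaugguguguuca
The count tables list 15 microRNA genes within Mirg and 13 small nucleolar RNA genes within Rian. Over the 6 libraries these hosts' small RNA genes had 49 counts for Mirg and 305 for Rian, so they say nothing of the small RNAs themselves.

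Meg3 stood at 323, 293 and 369 CPM in iRGCs and at 2014, 1668 and 1061 CPM in cRGCs. By mean CPM over all 6 libraries it had rank 59 of the 15941 tested genes, the highest of the 10, although Plagl1 and Mest had higher means within iRGCs. The iRGC libraries were close together and far below the cRGC libraries, of which replicate 3 was the lowest. In log2 the difference was -2.27 (SE 0.22, adjusted p = 2.17e-04), and between -2.48 and -2.07 with any 1 library left out. Antisense and neighbouring genes share 8.29% of its exonic bases.

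Rian stood at 118, 122 and 181 CPM in iRGCs and at 508, 482 and 359.5 CPM in cRGCs. The order of the libraries within cRGCs was that of Meg3, and the populations did not overlap. For Rian the log2 value was -1.68 (SE 0.20, adjusted p = 3.32e-04).

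Mirg was far less abundant, at 6.08, 1.95 and 3.72 CPM in iRGCs and at 11.9, 7.21 and 8.49 CPM in cRGCs. Its libraries did not overlap, although iRGC replicate 1 came near cRGC replicate 2. A log2 value of -1.23 resulted (SE 0.44, adjusted p = 0.0547), and the call was lost without iRGC replicate 2, iRGC replicate 3, cRGC replicate 1 or cRGC replicate 3 (adjusted p 0.106 to 0.196, edgeR).

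Dlk1 was at the edge of detection, with 29, 94 and 39 counts in iRGCs and 0, 22 and 15 counts in cRGCs. In CPM these were 0.933, 2.91 and 1.23 in iRGCs and 0, 0.759 and 0.484 in cRGCs, where 0 of 28274471 reads in cRGC replicate 1 allows up to 3 counts, for counting error only. The iRGC libraries were all above the cRGC libraries, but the log2 fold change of 2.01 had an SE of 1.27 and did not pass the test (adjusted p = 0.251). Dlk1, read from the paternal copy of the same cluster, cannot be said to differ or not to differ between the populations.

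**Figure D3:**
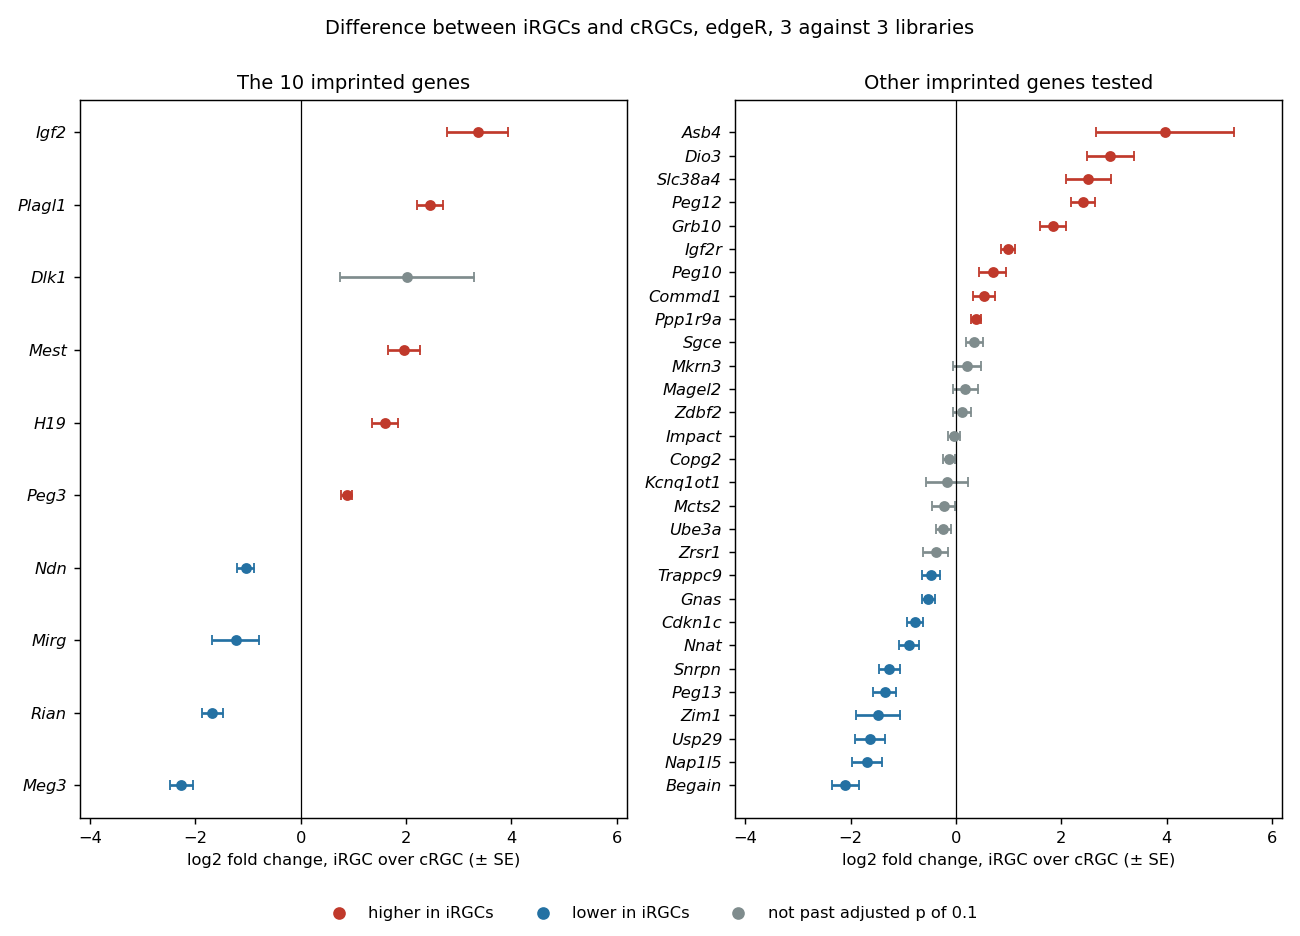
Log2 fold change of iRGCs over cRGCs with its SE (edgeR, 3 against 3 libraries) for the 10 imprinted genes on the left and the 29 other imprinted genes tested on the right, coloured by the call at an adjusted p-value under 0.1. Igf2 is the highest of the 10 at 3.36 and Meg3 the lowest at -2.27, and Dlk1, at 2.01, has the widest error of the 10.

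Pairs of genes were then set against each other within each library, where the scaling of the library has no part. These 5 ratios were compared between populations by exact permutation tests, two-sided, and 3 libraries against 3 cannot give a p-value below 0.1, so none could pass 0.05. The ratio of H19 to Igf2 counts was 3.83, 1.81 and 5.25 in iRGCs and 12.8, 9.74 and 6.39 in cRGCs. Each iRGC library held fewer H19 reads per Igf2 read than each cRGC library, although both genes were higher in iRGCs. The difference of the mean log2 ratios was -1.49, iRGCs minus cRGCs (exact permutation p = 0.1, 0.125 after Benjamini-Hochberg over the 5 ratios).

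The ratio of Peg3 to Ndn, both paternally expressed genes of chromosome 7, was 1.67, 1.25 and 0.890 in iRGCs and 0.346, 0.310 and 0.309 in cRGCs. The cRGC libraries were nearly alike and below all iRGC libraries, with a difference of 1.94 in log2 (exact permutation p = 0.1, adjusted 0.125). Because Peg3 was higher and Ndn lower without overlap, this separation followed from the single genes and is no further result. The same is true of Meg3 to Dlk1 below. Rian stood at 0.365, 0.417 and 0.490 reads per Meg3 read in iRGCs and at 0.252, 0.289 and 0.339 in cRGCs, a difference of 0.53 in log2 with no overlap (exact permutation p = 0.1, adjusted 0.125). Both noncoding RNAs were lower in iRGCs, and Meg3 by more than Rian in these ratios. The ratio of Mirg to Meg3 overlapped between the populations, with a difference of 0.88 in log2 (exact permutation p = 0.2, adjusted 0.2). Meg3 outnumbered Dlk1 by 340.3, 100.2 and 296 times in iRGCs and by 2148 and 2121 times in cRGC replicates 2 and 3. In cRGC replicate 1, with no Dlk1 read, the ratio was at least 17465 with Dlk1 set at the floor of 3 counts, and without that library the difference was -3.30 in log2, so its size rests on few Dlk1 reads.

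**Figure D4:**
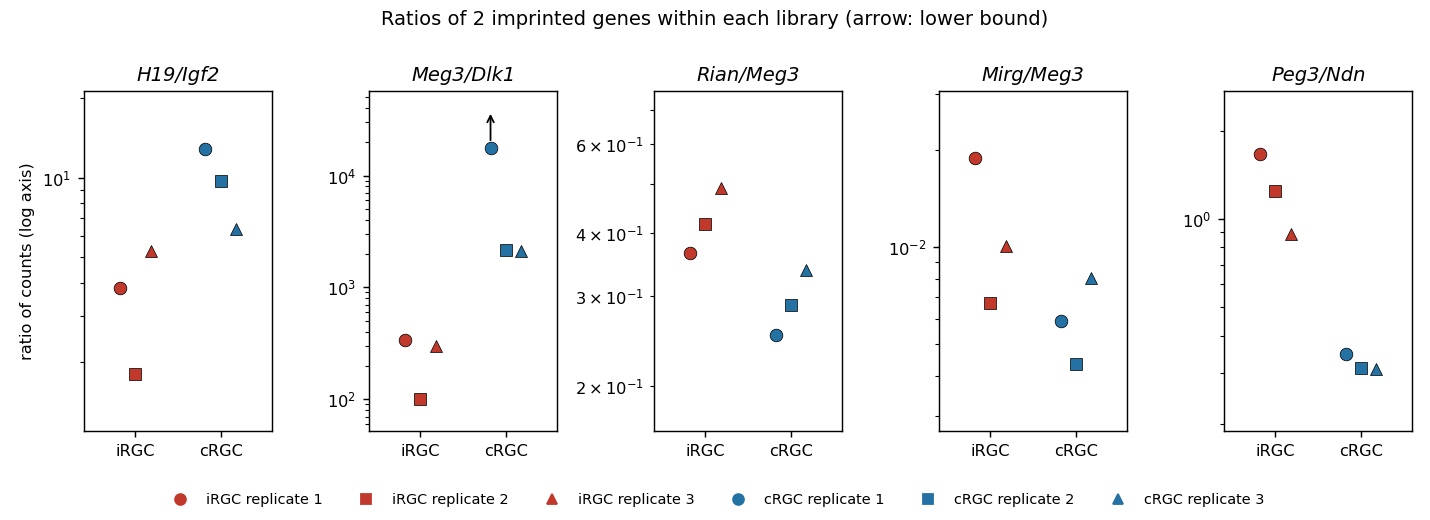
Ratio of the counts of 2 imprinted genes within each library (log axes, 1 panel per pair, symbols as for the replicates), where the arrow marks a lower bound from a library without Dlk1 reads. The populations overlap for Mirg/Meg3 and not for the other 4 pairs, among which H19/Igf2 runs from 1.81 to 5.25 in iRGCs and from 6.39 to 12.8 in cRGCs.

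To set genes against each other their levels were divided by exon length. In iRGCs the mean CPM per kilobase was highest for Plagl1 (115 ± 17.6, SD, n = 3), Mest (102 ± 48.9), H19 (90.5 ± 28.7) and Ndn (55.3 ± 12.4), and each of these overlapped its neighbour in that order. After a gap came Peg3 (18.5 ± 1.66), Meg3 (18.1 ± 2.12), Igf2 (14.4 ± 11.9) and Rian (7.69 ± 1.93), again with overlap between neighbours, and after another gap Mirg (0.537 ± 0.284) and Dlk1 (0.299 ± 0.188). In cRGCs the order was led by Ndn (114 ± 8.40) and Meg3 (87.4 ± 26.7), which overlapped. H19 (29.9 ± 7.03), Mest (26.1 ± 4.29), Rian (24.7 ± 4.35) and Plagl1 (21.0 ± 7.13) followed as a group with overlap between neighbours, then Peg3 (10.2 ± 0.639) alone, then Igf2 (1.40 ± 0.401) and Mirg (1.26 ± 0.334), and last Dlk1 (0.0733 ± 0.0679). On this scale, which ranks levels and not differences, the leading transcripts of iRGCs by mean were Plagl1, Mest and H19, each overlapping the next, and those of cRGCs were Ndn and Meg3.

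Promoters were read for the motif TGCCGC on either strand, the methylated hexamer known to be bound by the zinc finger protein Zfp57, because Zfp57 itself was expressed in both populations. The window was the 250 bases before each start site in RefSeq (GRCm38.p6), and 9 of the 10 genes had an entry, with 15 windows in all. The motif was in 4 windows, of Plagl1, Mest and Meg3, where Mest counts 2 times with windows that overlap nearly in full, and in 8.68% of all 32851 windows of the genome's genes. The 3 printed here, 1 per gene, are those with the motif, which is in capitals where it was found, here always as GCGGCA on the strand shown. They are Plagl1 at chr10:13090582-13090831 (19 CpG), Mest at chr6:30737800-30738049 (14 CpG) and Meg3 at chr12:109540746-109540995 (10 CpG), all on the plus strand. The median over all genes was 6 CpG per window. The motif itself holds CpG, and windows of the 10 genes without it ran from 0 CpG (Rian) to 22 CpG (Igf2).
Plagl1: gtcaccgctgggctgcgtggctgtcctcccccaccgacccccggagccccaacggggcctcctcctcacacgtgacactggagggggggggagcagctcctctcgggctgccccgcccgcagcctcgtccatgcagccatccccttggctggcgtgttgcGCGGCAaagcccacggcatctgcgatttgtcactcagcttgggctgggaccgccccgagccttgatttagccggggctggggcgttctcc
Mest: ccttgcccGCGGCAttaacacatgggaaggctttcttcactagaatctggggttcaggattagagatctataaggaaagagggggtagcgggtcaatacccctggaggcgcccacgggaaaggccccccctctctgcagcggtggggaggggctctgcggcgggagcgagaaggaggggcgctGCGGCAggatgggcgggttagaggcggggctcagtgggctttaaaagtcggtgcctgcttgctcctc
Meg3: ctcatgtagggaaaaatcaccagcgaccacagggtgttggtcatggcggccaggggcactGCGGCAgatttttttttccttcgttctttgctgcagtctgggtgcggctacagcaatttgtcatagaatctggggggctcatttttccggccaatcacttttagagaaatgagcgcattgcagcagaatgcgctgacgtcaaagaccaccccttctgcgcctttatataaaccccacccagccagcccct
Mest has the motif at 2 places and the others at 1. A match describes these letters in this window, and neither binding nor methylation was measured in these data. Plagl1 and Mest were higher in iRGCs and Meg3 lower.

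Other imprinted genes of the mouse were read from a list of 40 arranged by cluster. Of these, 39 were in the tables, Zfp264 was not matched, and 29 had enough counts to be tested. In iRGCs 9 were higher, 10 were lower and 10 did not pass, and with the first 10 genes included 28 of 39 were past the threshold, against 7395 of all 15941 tested genes. Over the 29 other genes the median absolute log2 fold change was 0.70. Kcnq1, Phlda2, Slc22a18, Ascl2, Rtl1, Klf14, Calcr, Airn, Rasgrf1 and Kcnk9 were below the filter on low counts.

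On the higher side, Dio3, the deiodinase that inactivates thyroid hormone and the paternally expressed end of the Dlk1 cluster, stood at 41.0, 49.4 and 26.9 CPM in iRGCs and at 2.00, 6.63 and 6.65 CPM in cRGCs (log2 fold change 2.93, SE 0.44, adjusted p = 9.13e-04). Begain, a postsynaptic density gene at the other end of that cluster and also paternally expressed, went the other way, at 40.0, 46.8 and 63.9 CPM in iRGCs and at 295, 196 and 156 CPM in cRGCs (log2 fold change -2.10, SE 0.26, adjusted p = 3.86e-04). The chromosome 12 cluster thus held genes that were higher and genes that were lower in iRGCs, among them 2 paternally expressed genes with opposite signs. Peg12, a Frat family gene, stood at 57.9, 52.9 and 53.5 CPM in iRGCs and at 7.73, 13.8 and 9.26 CPM in cRGCs (log2 fold change 2.41, SE 0.22, adjusted p = 2.05e-04), while Ndn of the same region was lower in iRGCs. Snrpn, a splicing gene of the same Prader-Willi cluster, was also lower (log2 fold change -1.26, SE 0.20, adjusted p = 0.00124), with 27.3% of its exonic bases shared with another gene model. Magel2 and Mkrn3, which lie between Ndn and Peg12, did not pass the test, with log2 fold changes of 0.18 (SE 0.23) and 0.21 (SE 0.26).

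Slc38a4, an amino acid transporter gene, was higher in iRGCs by 2.52 in log2 (SE 0.43, adjusted p = 0.00185). Asb4, an ankyrin repeat gene known from the vascular lineage, had the largest fold change of the list but few reads, at 0.611, 7.11 and 1.95 CPM in iRGCs and at 0, 0.276 and 0.323 CPM in cRGCs (log2 fold change 3.97, SE 1.31, adjusted p = 0.0389). Asb4 had enough reads for the test in iRGCs and not in cRGCs, so the filter on low counts favoured this call. The call is among the 9 higher and the 28 past the threshold given above. Its highest value was in iRGC replicate 2, and without that library the call was lost (log2 fold change 2.65, adjusted p = 0.251). On the lower side were Nap1l5 (-1.69, SE 0.29), a nucleosome assembly family gene, Usp29 (-1.64, SE 0.28), a ubiquitin peptidase gene that starts beside Peg3, and the noncoding RNA Peg13 (-1.35, SE 0.22), with adjusted p-values of 0.00170, 0.00185 and 0.00147. Zim1, a maternally expressed zinc finger gene next to Peg3, was lower as well (log2 fold change -1.48, SE 0.41, adjusted p = 0.0200), although its libraries overlapped. Around Peg3, then, Peg3 itself was higher and both neighbours on the list were lower. Split by parental copy, the tested genes of this list read from the maternal copy were 3 higher, Asb4 among them, and 2 lower of 7. Those from the paternal copy were 4 higher and 6 lower of 18, beside 23.3% and 23.1% of all tested genes. Grb10, Igf2r, Gnas and Trappc9, whose expressed copy depends on the tissue, were left out of this split. Ube3a, which is imprinted in neurons, was kept in it as maternal.

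The genes whose levels over the 6 libraries were most like those of H19, Dlk1, Meg3 and Ndn were found by the root mean square difference of log2(CPM + 0.5), each gene centred on its mean. This is a description over 6 libraries that fall into the same 2 populations. Nearest to Meg3 were Kcp (0.137), Ahnak2 (0.147) and Pou4f1 (0.166), a transcription factor of RGCs. Nearest to Ndn were Idh1 (0.0365), Gnai1 (0.0511) and Eid1 (0.0515). Nearest to H19 were Cflar (0.129), Gabpb2 (0.144) and Rexo5 (0.146), and nearest to Dlk1 were Ptgis (0.150), Acot1 (0.222) and Pecr (0.252). The Dlk1 pattern rests on few reads, and its cRGC levels of 0, 0.759 and 0.484 CPM are no more than near the 0.5 CPM added.

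Leaving out each library in turn changed no direction among the 10 genes. The largest shifts were those of Dlk1 and Igf2, and of the called genes Mirg lost its call. Mest and Igf2 were lowest without iRGC replicate 2, at 1.51 and 2.47, and both stayed past the threshold in each of the 6 fits.

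**Figure D5:**
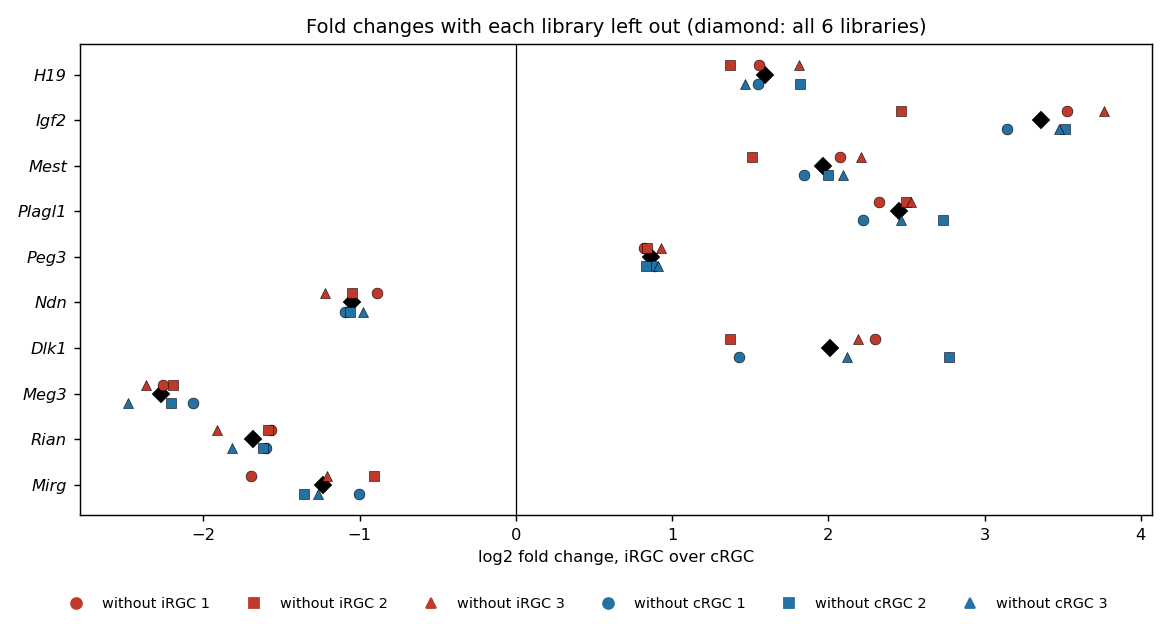
Log2 fold change of iRGCs over cRGCs of the 10 imprinted genes with all 6 libraries (diamonds) and with each library left out in turn (coloured symbols). No value crosses 0, and Igf2 runs from 2.47 to 3.76 and Peg3 from 0.82 to 0.93.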

How the data were processed

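The analysis covered the poly(A) RNA of sorted cells from E16.5 retina in 6 libraries, 3 per population, and the 13 ATAC-seq samples were not analysed here. The authors aligned 50-base reads to mm10 with HISAT2 2.1.0, counted them per gene with HTSeq 0.11.1 on the Ensembl GRCm38 annotation and deposited the raw counts, 1 table per library. Symbols, positions and exon lengths came from GENCODE M21 for 46574 of 47069 genes. The HTSeq lines without a gene were left out of totals and tests, and per library 8.09% to 16.8% of tallied alignments overlapped no gene, 0.618% to 0.649% were ambiguous and 25.9% to 33.0% not unique.

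The count test was that of edgeR 4.0.16 in R 4.3.3 (filterByExpr, TMM, quasi-likelihood test, two-sided, Benjamini-Hochberg over 15941 genes), at an adjusted p-value under 0.1, the FDR the study set. The study compared tissue types with DESeq2, and the sources used here name no block or covariate. DESeq2 was run as an alternative. The SE of a log2 fold change is its size over the root of the F statistic. Ratios were taken after adding 0.5 counts to each gene. The 10 genes, the list of 40 others, the marker lists, the ratios and the alternatives were chosen with earlier results of these data known.

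Named besides the 10 were, of the other imprinted genes, the 6 largest fold changes past the threshold in each direction and those under the filter. The 3 nearest patterns of 4 genes with a mean of at least 1 CPM and the driver genes were also named. From each marker list came its most abundant gene and genes at 0 in every cRGC library, with Lum, Mip and Rcvrn at 0 in every iRGC library. Igf1r, Insr, Zfp57, Trim28, Ctcf, Zfp445, Snhg14 and any other gene named were chosen after their values were seen. Alternatives were DESeq2 size factors, upper quartile factors, the DESeq2 1.42.0 test, limma 3.58.1 voom, no filter, a minimum of 10 counts per library for all libraries, omission of single libraries, the replicate number as a block and an adjusted p-value under 0.05. The sources used here do not say whether RNA libraries came from separate litters, so p-values measure only the spread between libraries. One erythroid marker gene is not reported here. Scripts were tested on simulated data. Figures were drawn with matplotlib 3.10.9.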

Additional observations from a re-analysis of the deposited data

How the results depend on the processing

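The 10 genes kept their direction under every alternative that gave them a value, and all but Mirg kept their side of the threshold. Mirg lost its call without iRGC replicate 2 (adjusted p = 0.113), iRGC replicate 3 (0.106), cRGC replicate 1 (0.196) or cRGC replicate 3 (0.118), and at an adjusted p-value under 0.05 (-1.23, adjusted p = 0.0547, edgeR). Its log2 fold change ran from -1.70 to -0.91 with 1 library left out. Dlk1 stayed short of the threshold, at 1.37 to 2.77 with 1 library left out, and had no value where every library needed at least 10 counts. Of the 10 genes, 5 were higher under each of the 14 alternatives and 3 or 4 lower. Of the other imprinted genes 7 to 10 were higher and 9 to 11 lower. Among these, Asb4, Peg10, Commd1 and Trappc9 lost their call under at least 1 alternative. Over all genes, 3147 to 3901 were higher and 3068 to 4040 lower. DESeq2 size factors and upper quartile factors moved the median of all genes by 0.00 and 0.03 in log2.

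Deviations of libraries of the same number had correlations of -0.03, -0.05 and -0.08 over 14003 genes, and those of unlike number ran from -0.03 to 0.08. Deviations from a mean of only 3 libraries cannot decide whether the replicate numbers pair them. With the replicate number as a block, 5 of the 10 were again higher and 4 lower, with log2 fold changes of 3.08 for Igf2, -2.23 for Meg3 and -1.34 for Mirg, and 3316 genes in all were higher and 3435 lower. With 3 libraries per population and a biological coefficient of variation of 36.3%, the gene with the fewest reads, Dlk1, had the largest SE of the 10, 1.27.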

Other observations

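The genes whose products are known to keep or read imprints were looked at after the values above were seen. Zfp57, which encodes the zinc finger protein that holds methylation at imprinting control regions, stood at 69.0, 95.0 and 91.7 CPM in iRGCs and at 259, 223 and 218 CPM in cRGCs. Every cRGC library was above every iRGC library, a log2 value of -1.45 for iRGCs over cRGCs (SE 0.15, adjusted p = 2.25e-04, edgeR). Its cofactor gene Trim28 was higher in iRGCs by 0.48 in log2 (SE 0.10, adjusted p = 0.00372), and Ctcf, whose product binds the control region between Igf2 and H19, by 0.66 (SE 0.11, adjusted p = 0.00184). Zfp445, another zinc finger gene of imprint maintenance, did not pass the test (log2 fold change -0.18, SE 0.11, adjusted p = 0.230).

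Snhg14, the long host RNA of the Prader-Willi cluster that runs antisense to Ube3a, was lower in iRGCs (log2 value -1.33, SE 0.14, adjusted p = 2.58e-04), as were Ndn and Snrpn. Ube3a, a ubiquitin ligase gene read from the maternal copy in neurons, did not pass the test (log2 fold change -0.24, SE 0.14, adjusted p = 0.218), and 8.74% of its exonic bases are shared with Snhg14. Kcnq1ot1, the antisense RNA of the cluster next to H19, stood at 133, 125 and 35.7 CPM in iRGCs and at 131, 97.9 and 101 CPM in cRGCs, so that iRGC replicate 3 was below all other libraries. Cdkn1c of the same cluster, the Cdk inhibitor p57, was lower in iRGCs (log2 fold change -0.78, SE 0.15, adjusted p = 0.00284).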
